A study of Arabidopsis thaliana with 6 samples.

Results

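The genes described here are those of a stretch of *Arabidopsis* chromosome 3, from At3g47180 to At3g51100, without the loci At3g47640, At3g48100, At3g50070 and At3g50970. Of 13498 genes that a probe set of the array ties to 1 locus, 203 lie in this stretch. Each gene was read at the probe set with the highest mean where it had more than 1, as 4 of the 203 did. The stretch was chosen with the differences between genotypes in view, so that these differences are given as a description and not as tests.

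The study asked which genes need the F-box gene *FBS1* for their expression at a chilling temperature. It compared wild type (WT) seedlings with *fbs1–1* seedlings, in which a transposon sits in intron 1 of *FBS1*, a gene of chromosome 1. All plants were 12 days old, kept at 24 °C for their first 5 days and at 10 °C for the 7 that followed, and RNA of whole seedlings was measured on 3 Affymetrix ATH1 arrays per genotype, each from a replicate of about 50 pooled seedlings. The labels give No-0 as the background of both genotypes, but the names of the WT array files read Nd0. The mutant is 1 insertion line, so that the insertion and any other difference between the lines cannot be told apart. No probe set was tied to *FBS1* by the annotation used here, and the label of the mutant was therefore not checked on its own gene.

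In a map of a chromosome, neighbouring genes are usually inherited together. Genes of 1 family often stand side by side as tandem copies, and accessions of *Arabidopsis* can differ in which copies they carry. An ATH1 probe set is a group of short probes made after the Col-0 genome, so that its signal depends on how much transcript is present and also on how well the transcript's sequence matches the probes. Neither was measured apart from the other on these arrays, and fewer cells of a type and less RNA per cell cannot be told apart in whole seedlings.

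The assembly lists 459 loci in the interval, 415 of them protein coding. Of the protein-coding loci, 219 have no probe set tied to them alone and are not among the 203 genes. This is a limit of the annotation used, which left 8496 of the 22746 probe sets without a name. Some of these loci may thus be on the array all the same. A gene is said below to be measured where a probe set is tied to it alone. A further 7 probe sets are shared by several loci, at least 1 of them in the stretch. Of the 203 genes, 198 were named by the platform annotation. The other 5, *CSR1*, *CXE13*, *MES10*, *HR4* and *SNRK2.2*, were named only through tables of the study, which list genes it had called. The symbols are sparse as well. A symbol is known for 164 loci of the interval but for only 24 of the 203 genes measured. Values are log2 intensities as deposited, with array medians between 2.62 and 2.72 and between 40.16% and 40.82% of probe sets under 2. Of the stretch, 86 genes (42.36%) were under 2 on all 6 arrays, against 40.73% of all genes tied to 1 locus and 35.53% of all probe sets. Levels of different probe sets are not comparable with each other, and comparisons below are between genotypes at 1 probe set. A gene is called where its adjusted p from limma, over all 22746 probe sets, is under 0.05.

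In the stretch, 15 genes were called higher in WT (7.39%) and 6 higher in *fbs1–1* (2.96%). Over all probe sets, 1.57% were called higher in WT and 1.68% higher in *fbs1–1*. Over all genes tied to 1 locus, some of them also named through the study's tables, the shares were 2.1% and 2.11%. Since the stretch was chosen on this contrast, nothing is read from the distance between these shares. The balance of the called genes did not extend to the rest of the stretch. The difference, given throughout as WT minus *fbs1–1* on the log2 scale, was positive in 96 genes and negative in 107, a positive share of 47.29% against 48.05% over all probe sets. Its median was -0.02, against -0.01 over all probe sets. It lay within 0.25 of 0 in 152 genes and ran from -2.78 to 4.75. The 3 WT arrays were all above the 3 *fbs1–1* arrays in 26 genes and all below them in 21, while the genotypes overlapped in 156. Over all probe sets, 8.94% had all WT arrays above and 10.8% all *fbs1–1* arrays above. The stretch is thus mostly higher in WT only among its called genes. By rank products, the test that the study's methods name, 12 genes were called higher in WT and 7 higher in *fbs1–1*, against 1.18% and 1.14% of all probe sets, and these included 11 of the 15 and 6 of the 6.

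**Figure D1:**
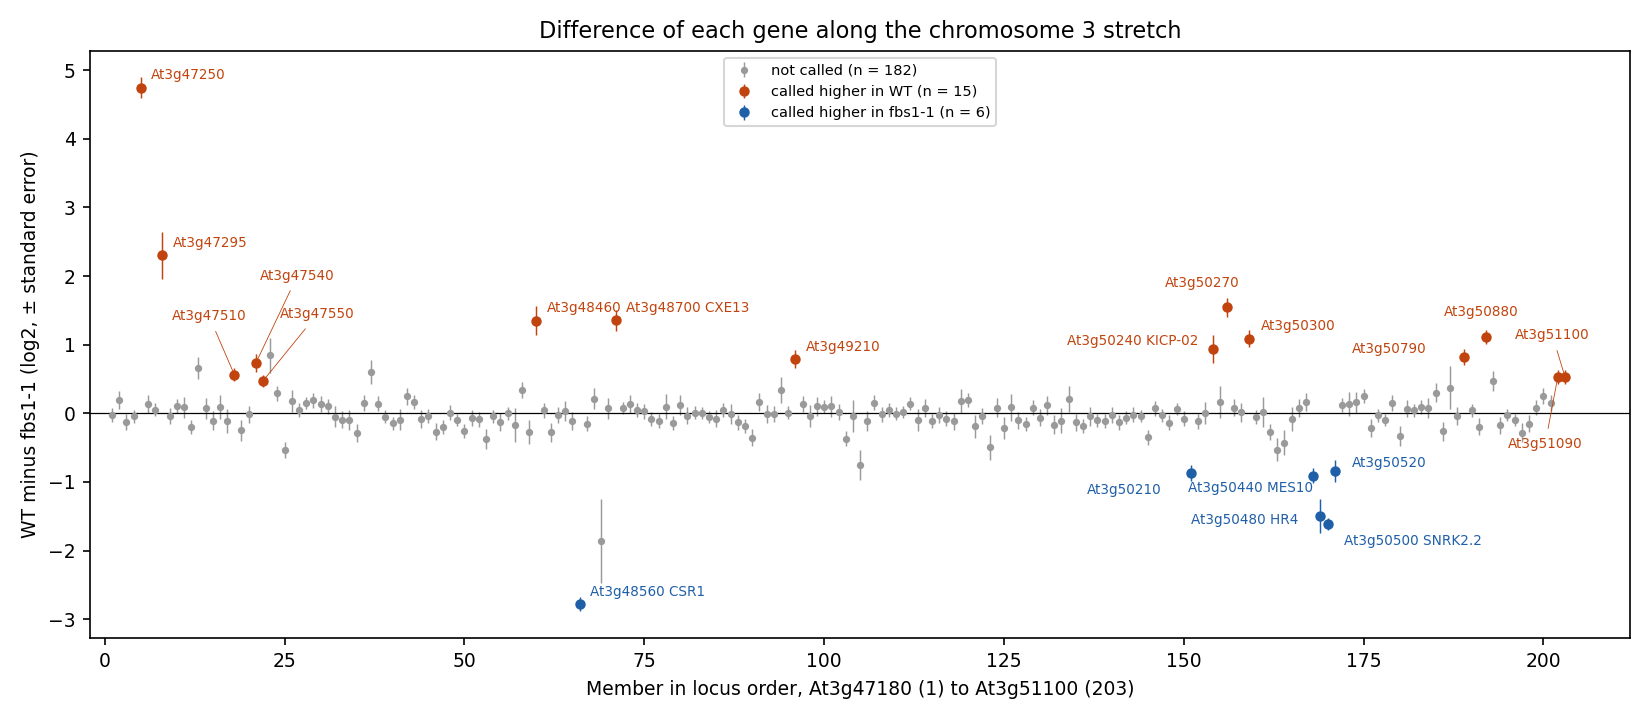
Difference between genotypes of each of the 203 genes in locus order, as WT minus *fbs1–1* on the log2 scale, with bars for limma's standard error (3 arrays per genotype). Orange marks the 15 genes called higher in WT, blue the 6 called higher in *fbs1–1* and grey the other 182; the calls alternate in blocks along the axis, and most grey points lie near 0.

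Read in locus order, the calls among the 203 genes came in 7 blocks of alternating direction. This holds only for these genes. Of them, *CSR1*, *CXE13*, *MES10*, *HR4* and *SNRK2.2* entered only through the study's tables of called genes. Without these 5, *CSR1* would form no block and At3g50520 would stand alone in its block. *ARR5* (At3g48100), left out of the stretch, and a probe set shared by *PRX33* (At3g49110) and *PRX34* (At3g49120) were called higher in *fbs1–1* and lie between genes called higher in WT. The first 6 called genes, At3g47250 to At3g48460, were all higher in WT. *CSR1* (At3g48560), higher in *fbs1–1*, came next. *CXE13* (At3g48700) and At3g49210 followed, higher in WT, and then At3g50210, higher in *fbs1–1*. After them stood 3 genes higher in WT (At3g50240, At3g50270 and At3g50300), 4 higher in *fbs1–1* (At3g50440, At3g50480, At3g50500 and At3g50520) and 4 higher in WT (At3g50790, At3g50880, At3g51090 and At3g51100). Between At3g49210 and At3g50210, 54 neighbouring genes of the 203 held no call, though *CYCD3;3* (At3g50070), which lies there and was left out of the stretch, was called higher in *fbs1–1*. Among the 54, 19 differences were positive and 35 negative, between -0.76 and 0.20, and 27 of the genes were under 2 on all arrays. Split into 4 parts of 50 or 51 genes in order, the stretch held 5, 3, 0 and 7 calls higher in WT and 0, 1, 1 and 4 higher in *fbs1–1*.

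At3g47250, a member of the DUF247 family of plant proteins of unknown function, had the largest difference of the stretch. Its WT arrays read 5.67, 5.63 and 6.06 and its *fbs1–1* arrays 1.21, 0.83 and 1.07. The gene was thus at 3 or above on all WT arrays and under 2, the low end of the scale, on all *fbs1–1* arrays. No other of the 203 genes had this pattern in either direction, which 0.101% of all probe sets showed. The difference was 4.75 ± 0.15 (SE, n = 3 per genotype). Since signal at the low end follows transcript level poorly, this is a difference of signal, and no fold of the transcript is given.

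A probe set shared by *PLC9* (At3g47220) and *PLC8* (At3g47290), which stand on either side of At3g47250, showed the same pattern. Both genes code for phospholipase C enzymes, which cleave membrane phosphoinositides. The WT arrays of this probe set read 4.89, 5.40 and 5.51 and the *fbs1–1* arrays 1.42, 1.09 and 1.07, a difference in signal of 4.07 ± 0.17 (SE, n = 3 per genotype), again with *fbs1–1* at the low end of the scale. Which of the 2 genes gave the WT signal cannot be told apart, and the pair is not counted among the 203 genes.

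At3g47295, a locus with no description in the tables used here, lies next to *PLC8*. Its WT arrays read 7.05, 6.55 and 6.14 and its *fbs1–1* arrays 5.03, 4.14 and 3.65. The genotypes did not overlap, but unlike At3g47250 this gene was well over the low end in both. The difference was 2.30 ± 0.34 (SE, n = 3 per genotype), or 4.94-fold. From At3g47180 to At3g47330, 11 genes were measured, and At3g47250 and At3g47295 were the only calls. Of the 11, 8 were under 2 on all arrays, with values between 0.78 and 1.86, so that a like absence in 1 genotype could not have been seen in them.

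**Figure D2:**
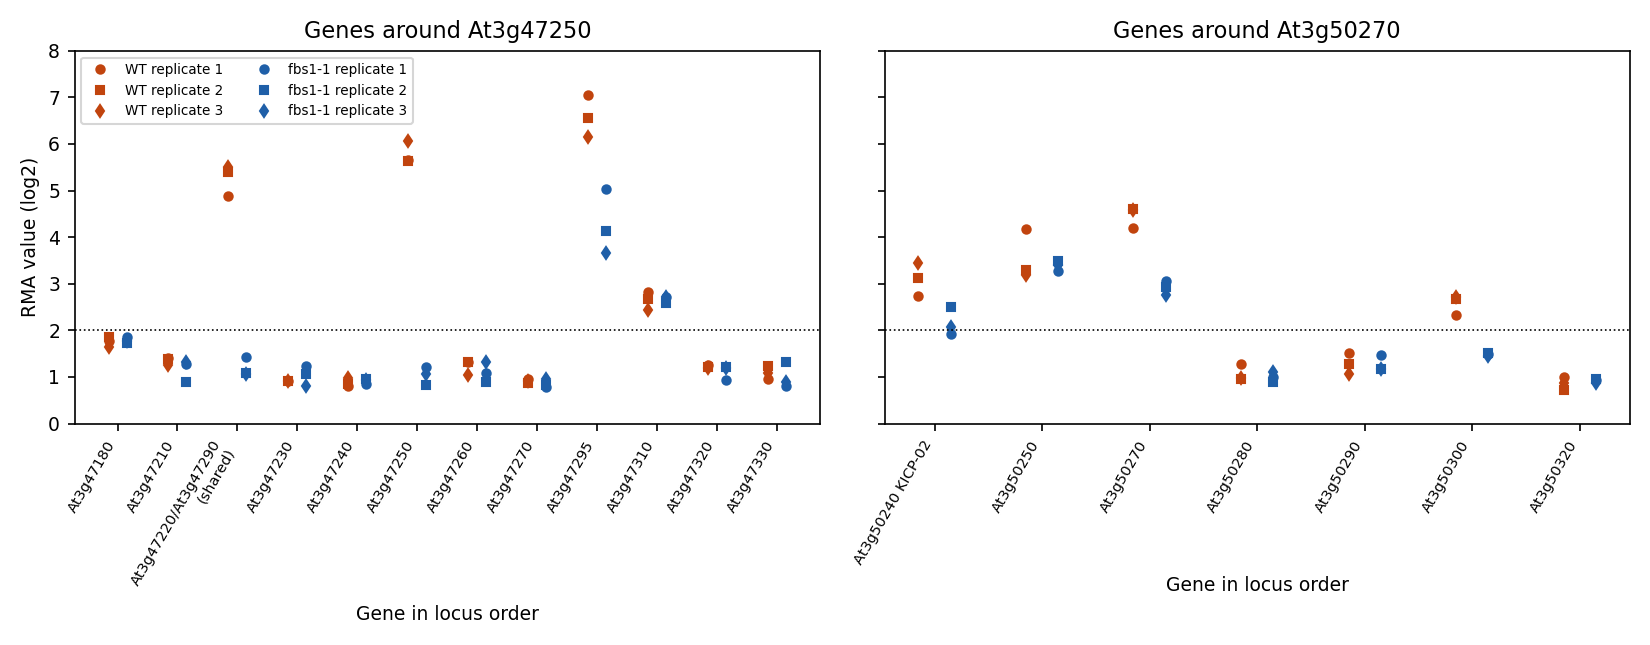
Log2 values on each array, as points, of the genes around At3g47250 and around At3g50270 in locus order, with the shared *PLC9* and *PLC8* probe set added; orange points are WT and blue points *fbs1–1* arrays, the shape gives the replicate, and the dotted line is at 2. At3g47250 and the shared probe set are at 4.89 or above in WT and at 1.42 or below in *fbs1–1*, among neighbours that, other than At3g47295, were not called.

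Further along, At3g47510, At3g47540 and At3g47550 were called higher in WT by small differences of 0.56, 0.73 and 0.47. At3g47510 lay at the low end, under 2 on every *fbs1–1* array, and rank products called neither it nor At3g47550. At3g47540 belongs to the chitinase family, whose enzymes cleave the chitin of fungal walls, and the tables do not describe the other two. Its WT arrays read 4.19, 4.32 and 4.43 and its *fbs1–1* arrays 3.35, 3.70 and 3.69. The adjacent gene At3g47560, of the α/β-hydrolase superfamily, had a larger difference, 0.85, without being called by limma (adjusted p = 0.141), though rank products called it higher in WT. Its arrays did not overlap, with 4.24, 4.50 and 4.53 in WT and 2.90, 3.98 and 3.84 in *fbs1–1*, of which the first *fbs1–1* array stood low.

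The next gene called higher in WT, At3g48460, is annotated as a GDSL-type lipase. It read 7.14, 6.51 and 6.76 in WT and 5.87, 5.23 and 5.26 in *fbs1–1*, a difference of 1.35 ± 0.21 (SE, n = 3 per genotype). *CXE13*, of the carboxylesterase family, read 3.83, 3.81 and 3.89 in WT and 2.34, 2.87 and 2.27 in *fbs1–1*. The WT arrays of *CXE13* lay close together, and its difference was 1.35 ± 0.16 (SE, n = 3 per genotype). At3g49210, a relative of the wax ester synthase WSD1, differed by 0.79, and At3g50790, annotated as an esterase or lipase, by 0.82.

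At3g50270 and At3g50300 belong to the HXXXD family of acyltransferases, which move acyl groups from coenzyme A to small molecules. At3g50270 read 4.19, 4.60 and 4.59 in WT and 3.07, 2.94 and 2.75 in *fbs1–1*, a difference of 1.54 ± 0.14 (SE, n = 3 per genotype). At3g50300 read 2.33, 2.68 and 2.71 in WT and 1.49, 1.5 and 1.46 in *fbs1–1*, a difference of 1.09 ± 0.12 (SE, n = 3 per genotype) against *fbs1–1* values that are all under 2, the low end of the scale. In both genes every WT array was above every *fbs1–1* array. At3g50280 and At3g50290, the genes between them, and 1 other of the 7 genes measured from At3g50240 to At3g50320 were under 2 on all arrays. *KICP-02* (At3g50240), a kinesin-type motor protein of the same neighbourhood, read 2.75, 3.11 and 3.45 in WT and 1.92, 2.5 and 2.08 in *fbs1–1*.

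At the far end of the stretch, At3g50880 was higher in WT by 1.12 ± 0.10 (SE, n = 3 per genotype). It is of the DNA glycosylase superfamily, whose members remove damaged bases from DNA. Its WT arrays read 2.81, 2.71 and 2.7 and its *fbs1–1* arrays 1.70, 1.70 and 1.48. The genotypes were well apart for their spread, though *fbs1–1* lay at the low end of the scale. At3g51090 and At3g51100, the last genes of the stretch, are adjacent and each differed by 0.53, but At3g51090 was under 2 on 5 of 6 arrays and has little signal to compare. Rank products called neither of the pair.

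*CSR1* was the gene with the largest difference in the other direction. It codes for acetolactate synthase, the first enzyme of branched-chain amino acid synthesis and the target of sulfonylurea herbicides. Its WT arrays read 7.37, 7.56 and 7.49 and its *fbs1–1* arrays 10.16, 10.22 and 10.38. Replicates were close in both genotypes, and *CSR1* was well expressed in each. The difference was -2.78 ± 0.10 (SE, n = 3 per genotype), or 6.87-fold higher in *fbs1–1*. None of the 4 measured genes nearest to it on either side was called.

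The 4 genes At3g50440 to At3g50520 are adjacent among the genes measured and were all called higher in *fbs1–1*. *SNRK2.2* (At3g50500), a protein kinase that carries the abscisic acid signal, read 5.19, 5.21 and 5.21 in WT and 6.77, 6.82 and 6.86 in *fbs1–1*. With SDs of 0.01 and 0.04 its replicates were almost alike, and it was 3.05-fold higher in *fbs1–1*. *HR4* (At3g50480), a homolog of the mildew resistance protein RPW8, read 3.0, 2.72 and 2.37 in WT and 3.80, 4.73 and 4.06 in *fbs1–1*. Its spread within each genotype was wider, and its difference was -1.50 ± 0.24 (SE, n = 3 per genotype). *MES10* (At3g50440), of the methylesterase family, read 4.00, 3.83 and 3.68 in WT and 4.63, 4.79 and 4.83 in *fbs1–1*. At3g50520, of the phosphoglycerate mutase family, read 3.76, 4.10 and 4.44 in WT and 4.92, 5.01 and 4.89 in *fbs1–1*. In each of the 4 genes all *fbs1–1* arrays lay above all WT arrays. Of these, only At3g50520 is named by the platform annotation, and without the 5 genes named through the study's tables the stretch held 14 calls higher in WT and 2 higher in *fbs1–1*. The platform-named genes as a whole held 1.39% and 1.42%.

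**Figure D3:**
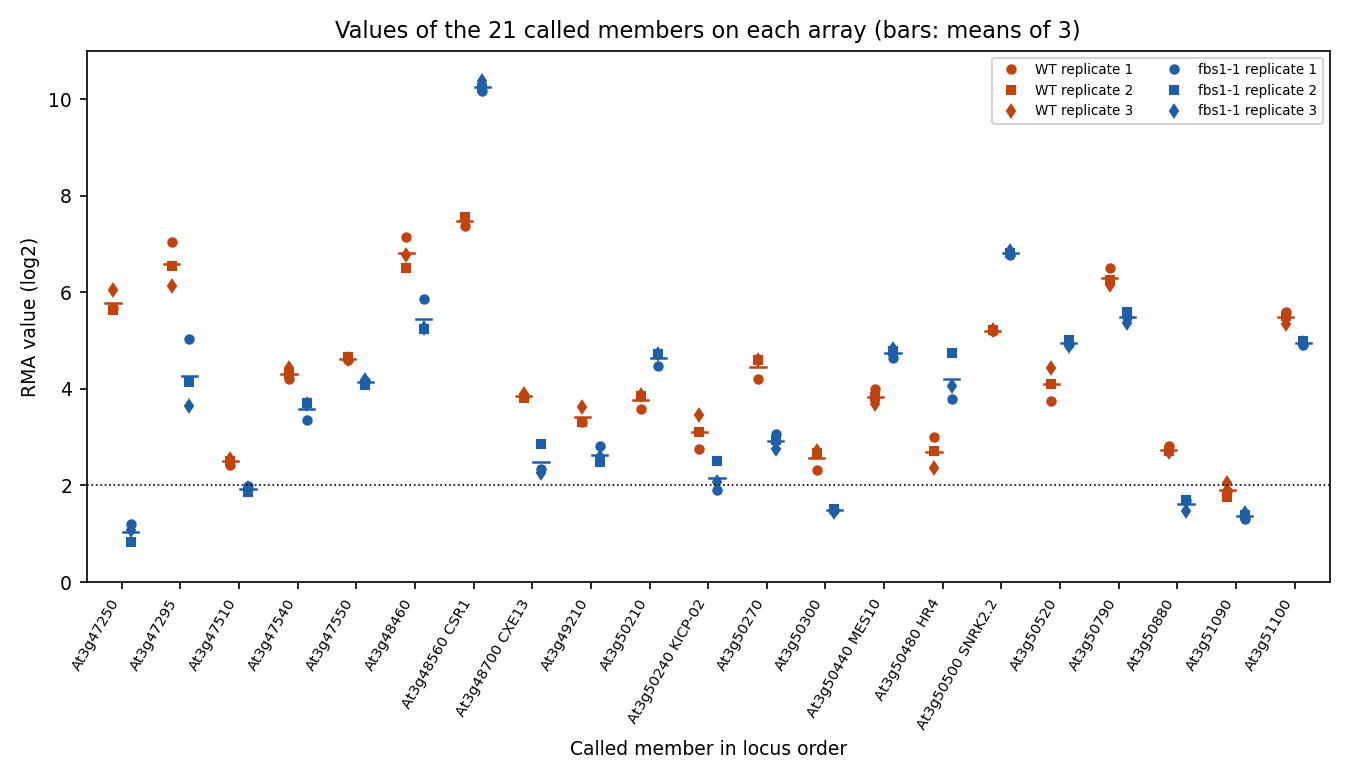
Log2 values on each array of the 21 called genes in locus order, with orange points for the 3 WT and blue points for the 3 *fbs1–1* arrays, bars at their means and a dotted line at 2. No called gene has overlapping genotypes, and the difference of the means runs in size from 0.47 in At3g47550 to 4.75 in At3g47250.

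The sixth gene higher in *fbs1–1*, At3g50210, belongs to the oxygenases that use 2-oxoglutarate and iron. It read 3.58, 3.85 and 3.87 in WT and 4.47, 4.72 and 4.72 in *fbs1–1*, a difference of -0.87 ± 0.12 (SE, n = 3 per genotype). At3g48640 had a larger difference, -1.86 ± 0.62 (SE, n = 3 per genotype), but was not called by limma (adjusted p = 0.183). Its arrays read 1.78, 2.93 and 3.86 in WT and 3.47, 5.70 and 4.98 in *fbs1–1*, so that the genotypes overlapped and both varied more than in any called gene. Replicate 1 was the lowest in both. The file numbers of the arrays put replicate 1 of each genotype apart from the other 4 arrays, and with this array set as a block in limma At3g48640 was called (adjusted p = 0.00624), as it was by rank products. With that block the stretch held 16 calls higher in WT and 9 higher in *fbs1–1*, and in the 4 arrays with higher file numbers alone 13 and 8. Shares called over all probe sets are not given for these fits, so nothing is read from the change in counts. The set with lower file numbers holds 1 array per genotype and allows no test.

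**Figure D4:**
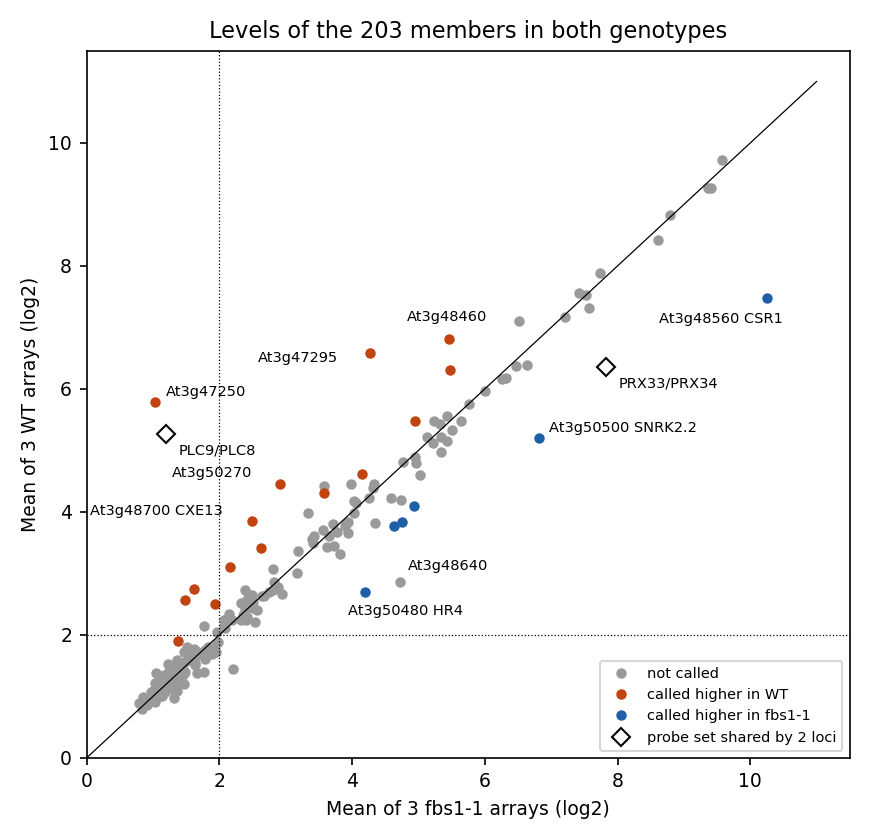
Mean log2 value of each of the 203 genes on the 3 WT arrays against its mean on the 3 *fbs1–1* arrays, with the line of equality and dotted lines at 2, the low end of the scale. Diamonds are 2 probe sets shared by a pair of loci. At3g47250 and the *PLC9* and *PLC8* probe set lie left of the dotted line, while *CSR1* lies below the line of equality at high values in both genotypes.

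Copies within the stretch were looked for by gene symbol, and by this route could be followed in few cases. Families whose genes carry no symbol here, such as DUF247, were not searched for copies. The peroxidases *PRX33* (At3g49110) and *PRX34* (At3g49120), which produce or use hydrogen peroxide in the cell wall, stand side by side and share a probe set. It read 5.98, 6.51 and 6.60 in WT and 7.63, 7.87 and 7.99 in *fbs1–1*, a difference of -1.47 ± 0.17 (SE, n = 3 per genotype), and was called. The *PLC* and *PRX* probe sets were the only called ones of the 7 shared by several loci, and they had opposite directions. *ARLA1B* (At3g49860) and *ARLA1C* (At3g49870), adjacent genes of small GTPases, have a probe set each and differed by -0.07 and 0.12. Neither was called. The 7 loci of the *ABCA* transporter family and the 6 of the *CYP71A* cytochrome P450 family in the interval have no probe set tied to them alone. Of the 4 *HR* loci only *HR4*, and of the 2 *CXE* loci only *CXE13*, had a probe set tied to it alone here. The calls of *HR4* and *CXE13* therefore cannot be set against the neighbouring copies.

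Relatives in other places of the genome, found by gene symbol, were read beside the genes of the stretch. *CXE16*, *CXE18* and *CXE20*, with differences of -0.08, -0.16 and 0.33, were not called, while *CXE13* differed by 1.35. *CXE13* was named only through the study's tables of called genes and the others by the platform annotation. It could thus enter only as a gene the study had called, and whether it differs from them in its response was not tested. *MES18* (At5g58310) was the only other gene with a *MES* symbol among those tied to a probe set. It was also called higher in *fbs1–1*, with a difference of -1.41 against -0.91 in *MES10*. Both were named only through the study's tables of called genes, and the same direction of the pair is therefore no independent evidence.

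Other genes of the stretch with relatives elsewhere were not called. The sucrose transporter gene *SWEET11* (At3g48740) differed by 0.14 and was not called, as were 12 of the 13 *SWEET* genes elsewhere. The exception, *SWEET2*, was higher in WT by 0.90. Among those not called, *SWEET3*, *SWEET6*, *SWEET7*, *SWEET8*, *SWEET9*, *SWEET10* and *SWEET14* were under 2 on all 6 arrays, where a difference could hardly be seen. *GTR1*, a transporter of glucosinolates, differed by -0.09 and its relative *GTR2* on chromosome 5 by -0.37. *UGT72E1*, of the enzymes that add glucose to lignin precursors, differed by -0.26, against -0.11 and 0.06 in *UGT72E2* and *UGT72E3*. *UGT72E3* was under 2 on 4 of the 6 arrays. *ALDH10A9*, an aldehyde dehydrogenase, differed by -0.26 and *ALDH10A8* by -0.12. None of these 7 genes was called. *RTH* and *IRX15*, relatives of the ethylene receptor regulator *RTE1* and the xylan gene *IRX15-L*, differed by 0.08 and -0.12 and were not called either. *IRX15* was under 2 on all arrays. The *IQD* genes, which code for calmodulin-binding proteins, have 2 members in the stretch, *IQD21* (At3g49260) with 0.10 and *IQD15* (At3g49380) with -0.02. Of 13 *IQD* genes elsewhere, 1 was called, *IQD30*, which was higher in *fbs1–1* with a difference of -0.60. *IQD15* was under 2 on all arrays, as were *IQD16*, *IQD26*, *IQD27* and *IQD33* elsewhere.

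The ends of the stretch were not marked by a common change. The nearest measured genes before it, At3g47160 and At3g47170, differed by 0.11 and -0.05, and the first inside, At3g47180 and At3g47210, by -0.02 and 0.19. At the other end, At3g51090 and At3g51100 inside each differed by 0.53, and At3g51110 and At3g51120 outside by 0.06 and 0.05. The 203 measured genes before the stretch held 5 calls higher in WT (2.46%) and 6 higher in *fbs1–1* (2.96%). The 203 after it held 6 (2.96%) and 1 (0.493%). All genes tied to 1 locus held 2.1% and 2.11%, and all probe sets 1.57% and 1.68%. These sets of genes differ in level. Before the stretch 60.59% of the genes were under 2 on all arrays and after it 33.0%, against 42.36% inside. The 4 loci left out of the stretch all had negative differences. The response regulator gene *ARR5* (At3g48100) and the cyclin gene *CYCD3;3* (At3g50070) were called, with -1.06 and -0.96. The iron deficiency regulator *PYE* (At3g47640), with -0.96, and the dehydrin gene *LTI30* (At3g50970), with -0.15, were not called.

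With 5 arrays in place of 6, fewer genes were called higher in WT, while no called gene changed direction. The difference of At3g47550 stayed between 0.44 and 0.50 over all settings tried and that of At3g50240 between 0.77 and 1.12. Of the 15 genes called higher in WT, 5 were called by limma whichever array was left out (At3g47250, *CXE13*, At3g50270, At3g50300 and At3g50880), as were 4 of the 6 higher in *fbs1–1* (*CSR1*, At3g50210, *MES10* and *SNRK2.2*). At3g47295 was lost only without *fbs1–1* replicate 2 (adjusted p = 0.050), At3g50790 only without *fbs1–1* replicate 3 (adjusted p = 0.0564), and At3g48460 without either of these (adjusted p of at most 0.0674). *HR4* was lost without WT replicate 2, WT replicate 3 or *fbs1–1* replicate 3, with an adjusted p of at most 0.0614. The other 8, among them At3g50240, At3g50520 and the last pair of the stretch, were each lost without any 1 of 3 to 6 arrays, with an adjusted p of at most 0.183. The calls higher in WT numbered 9 without WT replicate 2 or WT replicate 3 and 6 without *fbs1–1* replicate 3. The share called over all probe sets with 5 arrays is not given, so these counts are not read as a result about the stretch.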

How the data were processed

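The deposited table holds log2 intensities that the authors made with RMA (background correction, normalization across arrays and 1 summary value per probe set). The versions used are not given in the sources used here. Arrays have no read depth, and with 3 arrays per genotype their number limits precision. The labels call the replicates biological.

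Differences were fitted with limma 3.58.1 in R 4.3.3 over 22746 probe sets (64 control probe sets left out), with genotype as the only term and Benjamini-Hochberg adjustment over all of them. Standard errors are limma's moderated ones and SDs are over 3 arrays. On simulated data, limma recovered 80% of probe sets changed 2-fold and 98% of those changed 4-fold. The simulation used independent noise on each array and full shifts at any level. These rates therefore need not hold for genes at the low end of the scale. Rank products were computed in Python 3.11.15 over the 9 pairs of arrays with 100 permutations.

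Probe sets were tied to loci by the platform annotation and, where it names none, by the study's tables, whose fold changes were not used. Locus order and symbols came from RefSeq's TAIR10.1 annotation. The members and lists were chosen with earlier results of these data known. Genes were named where the difference was at least 1 (log2) in either direction, where 1 genotype was under 2 and the other at 3 or above on all arrays, where a family had several loci in the stretch, at the ends, and if left out of the stretch; other called genes and those set beside them were chosen after their values were seen. None of the 8 organ marker genes chosen was tied to a probe set, so the tissue makeup was not checked. Alternatives were another centring, quantile normalization, a filter on low values, limma's trend, the mean of a gene's probe sets, a stricter threshold, the array set, the replicate number as a block, and leaving out each array.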

Additional observations from a re-analysis of the deposited data

How the results depend on the processing

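At an adjusted p under 0.01, 7 genes of the stretch were called higher in WT and 4 higher in *fbs1–1*. Over the genes named by the platform annotation alone, 2 were called higher in *fbs1–1*. Leaving out 1 array at a time gave 6 to 13 calls higher in WT and 4 to 7 higher in *fbs1–1*. The other alternatives gave 12 to 17 and 6 to 9. Shares called over all probe sets are not given for the alternatives other than rank products and the platform annotation. A change in these counts is therefore not read as a change particular to the stretch. The median difference over the stretch, -0.02, turned to 0.01 with arrays centred on their medians, and it was near 0 throughout. The labels do not say whether same-numbered replicates of the 2 genotypes are pairs, and the main fit did not pair them. Deviations from the genotype means of same-numbered arrays correlated at 0.282, 0.0881 and 0.144, and with the replicate number as a block 17 and 8 genes were called. At3g48640 was called with that block (adjusted p = 0.0116). Genes under 2 on all arrays, 86 of the 203, limit what the stretch can show.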
